A study of Mus musculus with 3 samples.

Results

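The genes described here encode the pre-mRNA splicing machinery and the RNA-binding proteins that work around it, in mouse embryonic stem (ES) cells that express a mutant histone H2A.Z. Members were every row of the deposited gene table whose symbol begins with Srsf, Sfrs, Hnrnp, Sf3a, Sf3b, Snrp or Prpf, or with Rbm followed by a digit, leaving out Snrpn. The rule found 97 genes among 15311 rows. They comprised 12 SR protein genes, 18 hnRNP genes, 8 SF3A and SF3B genes, 11 Snrp genes, 13 Prpf genes and 35 Rbm genes. These families were taken from the symbol stems alone, so the SR group includes Sfrs18, whose RefSeq symbol is Pnisr.

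The K3R3 library came from ES cells carrying a YFP-tagged H2A.Z transgene in which lysines 119, 120 and 123 near the C-terminus were replaced by arginine. The 2 WT libraries, WT 1 and WT 2, came from cells carrying the same transgene with the wild-type sequence. Cells of both genotypes also carried a lentiviral hairpin that targets the endogenous H2A.Z transcript through its 3′ UTR and were selected with blasticidin, so endogenous H2A.Z was a knockdown target in WT as well. The transgenes sat in a CMV-promoter vector switched on through rtTA with 1 µg/ml doxycycline, and YFP-positive cells were sorted. The labels name both V6.5 and KH2 ES cells and do not say whether a line was 1 clone or a pool, which of the hairpins was used, or whether the WT libraries came from separate cultures. With 1 K3R3 library, a difference between the genotypes has no replicate check in K3R3, and every p-value rests on the spread of these samples alone, which may be technical spread. The lone K3R3 library was assumed to vary as the WT libraries did.

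Splicing removes introns in a series of steps carried out by small nuclear ribonucleoproteins. Most of them carry a ring of Sm proteins, encoded by Snrp genes. The SF3A and SF3B complexes belong to the U2 particle and help it hold the branch point, and many Prpf proteins act in the U4/U6 and U5 particles or in the rearrangements that activate the spliceosome. SR proteins commonly bind exonic enhancers and favour the use of nearby splice sites. Many hnRNP proteins coat nascent transcripts and often oppose that use. Rbm is a naming stem for proteins with RNA-recognition motifs, and it joins general splicing factors with regulators restricted to muscle, heart, brain or germ cells.

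The libraries held 24718223 counts in K3R3, against 21614693 in WT 1 and 25426228 in WT 2. The members took 3.01% of all counts in K3R3, against 3.09% in WT 1 and 2.96% in WT 2. The H2A.Z gene (H2afz) was at 222 CPM (counts scaled to TMM-adjusted library totals) in K3R3, against 219 and 232 CPM in WT, but the hairpin was in both genotypes and the transgene can add coding reads, so this value checks no label. All 10 listed ES cell markers were measured, and their summed level was 4587 CPM in K3R3, against 6565 and 5657 CPM in WT. Of the 10, 6 were below both WT libraries and 1 above. Of the 10 listed fibroblast markers 8 were in the table, with Postn and Lum not in it, and they summed to 947 CPM in K3R3, against 1308 and 1263 CPM in WT, although 4 of the 8 were above both WT libraries and 1 below, with a median log2 difference of 0.14. The 5 neural markers in the table summed to 97.6 CPM in K3R3, against 65.1 and 81.1 CPM in WT. Of these 5, 2 were above both WT libraries and 0 below. The 4 that were tested had a median log2 difference of -0.0004, and 0 were called by edgeR. The 6 primitive endoderm markers summed to 180 CPM in K3R3, against 385 and 307 CPM in WT, with 5 of the 6 below both. Their median log2 difference was -0.89, and that of the ES cell markers -0.35. At an adjusted p under 0.05, edgeR's quasi-likelihood test called 3 of the 10 ES cell markers and 1 of the 8 fibroblast markers. It also called 3 of the 6 primitive endoderm markers and 1 of 4 listed germ cell markers. These marker counts join both directions. Over all tested genes it called 2.02% higher and 0.542% lower. The part of these marker differences in the results below was not tested.

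Most of the machinery was abundant and lay at nearly the same level in K3R3 and WT. A few low-level members stood at least 1.5-fold above both WT libraries. With edgeR's quasi-likelihood test over all 13829 tested genes, 3 of the 97 members were called higher in K3R3 and 0 lower, at a Benjamini-Hochberg adjusted p under 0.05. The 3 were Rbm24, Rbm46 and Srsf12. Over all tested genes, 2.02% were called higher and 0.542% lower, against 3.09% of the members called higher, so the members' count is near the background. At an unadjusted p under 0.05 the same test had 5 members higher and 0 lower, against 7.9% and 3.33% of all tested genes. DESeq2 called 0 members in either direction, with 0.239% of all tested genes called higher and 0.188% lower. A second rule, which needs no estimate of the spread, asked which members lay at least 1.5-fold outside both WT libraries after adding 1 to each CPM value. It found 5 members above (Rbm20, Rbm24, Rbm43, Rbm46 and Srsf12) and 0 below, against 7.22% and 0.991% of all tested genes. At 2-fold, 4 members remained above, all but Rbm20, and 0 below, against 2.19% and 0.159%.

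**Figure D1:**
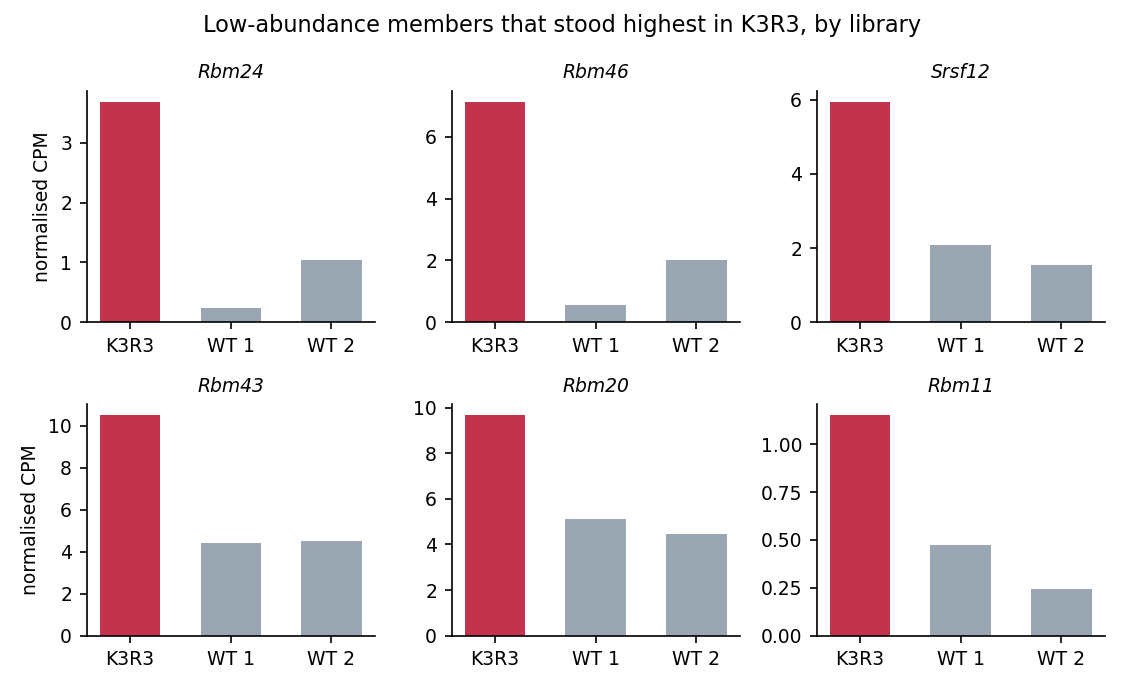
Normalised CPM of Rbm24, Rbm46, Srsf12, Rbm43, Rbm20 and Rbm11, with 1 bar per library in the order K3R3, WT 1, WT 2, no error bars and a separate axis from 0 for each gene. In every panel the K3R3 bar is above both WT bars, and Rbm24 and Rbm46 have WT 1 well below WT 2.

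Rbm46 encodes an RNA-binding protein needed in germ cells. It had 186 counts in K3R3, against 12 and 50 in WT. As normalised levels these were 7.15 CPM in K3R3, against 0.571 and 2.01 CPM in WT, a WT mean of 1.29 ± 1.02 CPM (SD, n = 2). K3R3 was above both WT libraries, and WT 1 was well below WT 2. The fitted difference was 2.44 on the log2 scale (SE 0.50), with an adjusted p of 0.000233 in the edgeR quasi-likelihood fit (Benjamini-Hochberg) and 0.230 by DESeq2. Against WT 1 alone the log2 difference was 3.55 and against WT 2 alone 1.81, while the WT libraries differed from each other by 1.75. The fit put all weight on a spread shared across genes, so this gap between the WT libraries did not widen the standard error of Rbm46, nor did the gap in Rbm24. The 4 listed germ cell markers were all measured and summed to 237 CPM in K3R3, against 150 and 182 CPM in WT; 2 lay above both WT libraries and 1 below, and their part in the Rbm46 difference was not tested. In bulk RNA, more cells with a transcript and more transcript per cell cannot be told apart.

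Rbm24 encodes a splicing regulator of heart and skeletal muscle. It had 96 counts in K3R3, against 5 and 26 in WT, or 3.69 CPM in K3R3, against 0.238 and 1.05 CPM in WT. The groups did not overlap, and WT 1 was again the lowest library. The log2 difference was 2.48 (SE 0.66), with an adjusted p of 0.0114 in the edgeR quasi-likelihood fit (Benjamini-Hochberg) and 0.595 by DESeq2. It was 3.74 against WT 1 alone and 1.78 against WT 2 alone, and the WT libraries were 1.96 apart, the widest WT gap among the members.

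Srsf12, an SR family member reported to oppose other SR proteins in splicing assays, had 155 counts in K3R3, against 44 and 38 in WT. The normalised levels were 5.95 CPM in K3R3, against 2.09 and 1.53 CPM in WT. The log2 difference of WT 2 minus WT 1 was -0.44, where the median size of this gap over the members was 0.17. K3R3 lay well above both WT libraries. The log2 difference was 1.72 (SE 0.50), with an adjusted p of 0.0282 in the edgeR quasi-likelihood fit (Benjamini-Hochberg) and 0.549 by DESeq2. Against WT 1 and WT 2 alone the log2 differences were 1.49 and 1.93.

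Rbm43 did not pass the test, although its WT libraries were almost equal. It had 274 counts in K3R3, against 93 and 112 in WT, or 10.5 CPM in K3R3, against 4.42 and 4.51 CPM in WT. K3R3 lay above both. The log2 difference was 1.24 (SE 0.40), with an adjusted p of 0.0616 in the edgeR quasi-likelihood fit (Benjamini-Hochberg). It was called when the libraries were scaled by upper-quartile factors or by the totals that the deposited RPKM values imply, with log2 differences of 1.34 and 1.36.

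Rbm20 encodes a repressor of titin exons in heart muscle. It had 252 counts in K3R3, against 108 and 111 in WT, or 9.68 CPM in K3R3, against 5.14 and 4.47 CPM in WT. K3R3 was above both WT libraries. The log2 difference was 1.01 (SE 0.40), with an adjusted p of 0.195 in the edgeR quasi-likelihood fit (Benjamini-Hochberg). Rbm11, a splicing regulator described in brain and testis, was the lowest member, with 30 counts in K3R3, against 10 and 6 in WT. Its level was 1.15 CPM in K3R3, against 0.476 and 0.242 CPM in WT, so it entered the test only through its K3R3 level, since the filter asked for a mean of 0.5 CPM over the libraries. Its log2 difference was 1.69 (SE 0.90), with an adjusted p of 0.493 in the edgeR quasi-likelihood fit (Benjamini-Hochberg).

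The authors' deposited table gives a WT over K3R3 ratio for each gene, the reverse of the order in its column names. In the authors' deposited table the ratio was 0.176 for Rbm24, 0.183 for Rbm46, 0.307 for Srsf12, 0.428 for Rbm43 and 0.501 for Rbm20. All 5 are below 1 and so have K3R3 higher. The unadjusted p-values in the authors' deposited table were 0.00742 for Rbm24, 0.000316 for Rbm46, 0.00914 for Srsf12, 0.0119 for Rbm43 and 0.0393 for Rbm20.

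The file's class column, which its header credits to a 2013 study, marks genes as active or bivalent; bivalent promoters carry an activating and a repressive histone mark together. It places 91 members in the active class and 4 in the bivalent class, and gives neither class for Hnrnpa3 and Rbm12. The 4 bivalent members were Rbm11, Rbm20, Rbm24 and Rbm46. All 4 lay above both WT libraries, as did 72.9% of the 1671 bivalent genes tested, and 2 of the 4 were called higher, against 10.5% of bivalent genes. Rbm11, which entered the test only through its K3R3 level, had to be above WT and adds nothing to that count. Of the 91 active members 1 was called higher, Srsf12, against 0.838% of active genes. The median log2 difference was 0.65 over all bivalent genes, -0.04 over all active genes and -0.10 over the active members.

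The 30 bases directly before the annotated start are shown for members that stood apart and for the abundant hnRNP gene Hnrnpa2b1 and Sm gene Snrpd3, to set their CpG content side by side. They are RefSeq sequence of GRCm38.p6, read 5′ to 3′ on the gene's strand, with each CG in capitals. They come from chr3:82876484-82876513 (minus strand, Rbm46), chr13:46418270-46418299 (plus, Rbm24), chr4:33209242-33209271 (plus, Srsf12), chr2:51935164-51935193 (minus, the outer of the Rbm43 starts), chr16:75592861-75592890 (plus, Rbm11), chr6:51469895-51469924 (minus, the outer of the Hnrnpa2b1 starts) and chr10:75518012-75518041 (plus, Snrpd3).
Rbm46: tgaggcaCGctaggctgaggCGaagagccc
Rbm24: CGtttccaactctgccccagcaacagCGcc
Srsf12: tgCGgctgCGCGgcCGgccCGggagggggc
Rbm43: ggCGggaaggaagtgtCGgggatCGggttt
Rbm11: CGctgcccaggCGgagcCGCGcagtaaagc
Hnrnpa2b1: taCGtaaCGgCGtgaCGtaagCGgagaCGc
Snrpd3: caaggcattctgggagCGCGtggtattCGt

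The CpG counts of the low-level members that had a window lay on both sides of the module's median; no window was used for Rbm20. RefSeq windows, each from 250 bases before to 50 bases after a start, were found for 82 of the 97 members, 104 windows in all. The window of Rbm46 held 25 CG dinucleotides, that of Rbm24 18, that of Srsf12 26 and that of Rbm11 25; the Rbm43 windows held 11 and 21. The median was 24 over the member windows, 19 over windows of all genes in the deposited table, 21 over its bivalent genes and 20 over its active genes.

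The ETS-type motif CCGGAAGT, searched on both strands, was more frequent in the member windows than in the other sets. It was in 14 of the 104 member windows (13.5%), against 6.82% of windows of genes in the deposited table, 8.46% of active and 0.861% of bivalent genes, and 3.89% of all RefSeq windows. The 14 windows belong to 12 genes, drawn from the SR, hnRNP, SF3, Snrp, Prpf and Rbm stems. It was not in the windows of Rbm11, Rbm24, Rbm43, Rbm46 or Srsf12. Below, the motif is in capitals, as read on the gene's strand, in 30-base stretches of Srsf11 (chr3:158031773-158031802, minus), Sf3a3 (chr4:124714759-124714788, plus), Srsf5 (chr12:80945465-80945494, plus) and Hnrnpd (chr5:99979099-99979128, minus). The motif lies 43 bases before the inner of the Srsf11 starts, and 91 bases before the start in Sf3a3, 23 in Srsf5 and 179 in Hnrnpd. The Srsf5 window held another match, 91 bases before its start, which is not shown. The window of the outer Srsf11 start did not hold it.
Srsf11: actggacgcgtACTTCCGGgatatgggcgc
Sf3a3: tcccccaagacACTTCCGGgacacgcggaa
Srsf5: ctggcaccgccCCGGAAGTgacgccaggac
Hnrnpd: ttgcgcacgccACTTCCGGtcctctttaaa

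The CCAAT box (CCAAT) was in 47.1% of member windows, against 37.6% of windows of genes in the deposited table, the GC box (GGGCGG) in 58.7% against 60.3%, and the E-box (CACGTG) in 14.4% against 9.64%. Windows of a gene with several starts can overlap, and a match says only that these letters are present.

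Per length, in RPKM, which divides a gene's reads by its length and by the library total, the hnRNP genes were the largest share of the module. Their RPKM summed to 2949 in K3R3, against 2933 and 2912 in WT, out of 7376 in K3R3, against 7430 and 7098 in WT, for all members. The SR genes summed to 1405 in K3R3, against 1439 and 1376 in WT, and the Snrp genes to 1234 in K3R3, against 1249 and 1093 in WT. Of the 97 members, 22 had a mean of at least 100 RPKM over the libraries and 4 a mean under 1. RPKM here uses the larger library totals that the authors divided by, and no TMM factors. With those totals the all-gene median log2 difference is 0.12 higher than with the TMM-scaled CPM used for the fitted differences. The listed counts were 67.1% of the totals in K3R3, against 66.2% and 66.9% in WT. The TMM factors were 1.053 in K3R3, against 0.973 and 0.976 in WT, so the shift lies mostly in the factors.

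**Figure D2:**
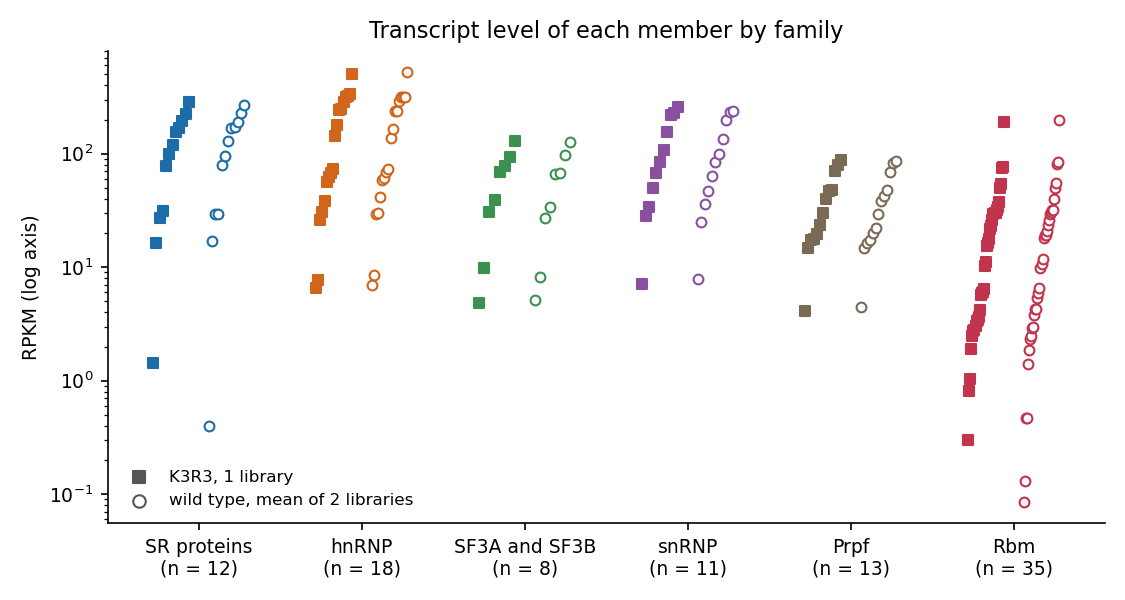
Level of all 97 members in RPKM (log axis) by family, with filled squares for the K3R3 library and, to their right, open circles for the mean of the WT libraries; each column is sorted by level. The hnRNP genes reach the highest level, with Hnrnpa2b1 at 509 RPKM in K3R3, and the Rbm genes span the widest range, with 3 averaging under 1 RPKM over the libraries.

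Among the hnRNP genes, Hnrnpa2b1, whose protein binds and sorts many mRNAs and also regulates splicing, was highest, at 509 RPKM in K3R3, against 493 and 553 RPKM in WT. Hnrnpab was at 337 RPKM in K3R3, against 323 and 314 RPKM in WT, and Hnrnpu, a nuclear matrix-associated protein, at 321 RPKM in K3R3, against 318 and 311 RPKM in WT. K3R3 lay between the WT libraries for Hnrnpa2b1 and slightly above both for the other genes on the RPKM scale. On the fitted, TMM-scaled log2 difference all 18 hnRNP genes were below 0, over the range -0.32 to -0.03, whereas 9 of 18 were above 0 with the implied totals and 7 of 18 with upper-quartile factors. The lowest was Hnrnpa3, at 25.9 RPKM in K3R3, against 29.7 and 29.8 RPKM in WT. Its log2 difference was -0.32 (SE 0.20), with an adjusted p of 0.629 in the edgeR quasi-likelihood fit (Benjamini-Hochberg).

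Among the SR genes, Srsf2, which binds exonic enhancers, was at 287 RPKM in K3R3, against 261 and 281 RPKM in WT. Srsf5 was at 225 RPKM in K3R3, against 225 and 228 RPKM in WT. Srsf7, which also takes part in mRNA export, was at 170.0 RPKM in K3R3, against 202 and 180 RPKM in WT. Srsf7 was thus below both WT libraries on either scale. It had the lowest fitted difference of the family, -0.29 on the log2 scale (SE 0.17), with an adjusted p of 0.614 in the edgeR quasi-likelihood fit (Benjamini-Hochberg). On the TMM scale 8 of the 12 SR genes were below both WT libraries, and Srsf12 was the family's highest difference.

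Snrpd3 was at 257 RPKM in K3R3, against 263 and 213 RPKM in WT, and Snrpe at 227 RPKM in K3R3, against 248.6 and 219 RPKM in WT; both encode Sm ring proteins. Snrpg, another Sm ring gene, was at 154 RPKM in K3R3, against 162 and 108 RPKM in WT. On the RPKM scale WT 1 was highest in each and K3R3 lay between the WT libraries; on the TMM scale Snrpe was below both, at 158 CPM in K3R3, against 190.0 and 165 CPM in WT. Snrpd1 was at 218 RPKM in K3R3, against 203 and 196 RPKM in WT, and was above both WT libraries on the RPKM scale. The median log2 difference of the 11 Snrp genes was -0.04 against both WT libraries, -0.20 against WT 1 alone and 0.04 against WT 2 alone, and the median WT 2 minus WT 1 difference was -0.26. Genes under 1000 bases long had a median WT 2 minus WT 1 difference of -0.16 over the 1004 tested and -0.31 over the 8 members among them, against 0.05 over tested genes of at least 4000 bases.

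The SF3 genes were also lower in WT 2 than in WT 1, with a median difference of -0.23. Among the other splicing genes listed by role, the median was -0.27 for the 14 helicases and GTPases and -0.25 for the 9 tri-snRNP genes, so the gap was not particular to the Snrp and SF3 genes. Sf3b3, a scaffold subunit of SF3B, was at 131 RPKM in K3R3, against 139 and 118 RPKM in WT. Sf3b1, the subunit that clasps the branch-point helix, was at 93.2 RPKM in K3R3, against 94.6 and 100.4 RPKM in WT. Sf3a3 was at 77.9 RPKM in K3R3, against 71.5 and 64.0 RPKM in WT. The family's median log2 difference between K3R3 and WT was -0.01. Its extremes were Sf3a2 at 0.14 (SE 0.31) and Sf3b5 at -0.22 (SE 0.43), with 4 of the 8 genes above 0.

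Of the Prpf genes, Prpf8, the large protein at the core of the U5 particle, was at 79.6 RPKM in K3R3, against 91.03 and 75.1 RPKM in WT. Prpf38a, a factor of spliceosome activation, was at 70.9 RPKM in K3R3, against 67.7 and 70.1 RPKM in WT. The WT libraries bracketed K3R3 for Prpf8, and K3R3 was slightly above both for Prpf38a on the RPKM scale. The log2 differences in this family reached from -0.27 (SE 0.23) for Prpf18, a factor of the second catalytic step, to 0.10 (SE 0.21) for Prpf4, a U4/U6 protein, with a median of -0.09.

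Among the abundant Rbm genes, Rbm39, a U2AF-related splicing factor, was at 190 RPKM in K3R3, against 210 and 189 RPKM in WT. Rbm25 was at 74.3 RPKM in K3R3, against 95.9 and 73.7 RPKM in WT, and Rbm17, which recognises 3′ splice sites, at 77.1 RPKM in K3R3, against 85.8 and 77.4 RPKM in WT. For these genes WT 1 stood high and K3R3 was close to WT 2. Rbm38, a p53-induced RNA-binding protein, had the lowest log2 difference of all members, -0.36 (SE 0.40), with an adjusted p of 0.942 in the edgeR quasi-likelihood fit (Benjamini-Hochberg). Its level was 6.18 CPM in K3R3, against 9.71 and 6.24 CPM in WT.

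**Figure D3:**
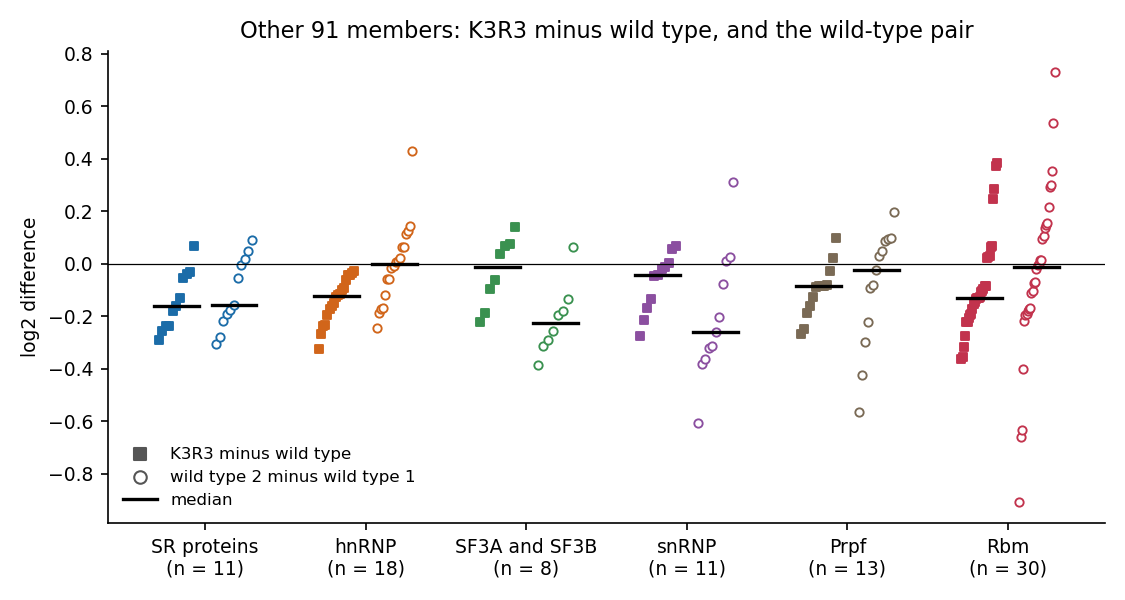
Log2 difference, by family, of the 91 members other than the 6 with the largest positive differences. Filled squares are K3R3 minus WT and, to their right, open circles are WT 2 minus WT 1. Each column is sorted and bars mark the medians of the genes shown. K3R3 minus WT stays between -0.36 and 0.38, and the WT pair medians of the Snrp and SF3 genes lie at -0.26 and -0.23.

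The median log2 difference between K3R3 and WT was -0.10 over the 97 members (interquartile range -0.19 to 0.00) and -0.01 over all tested genes. It was -0.15 for the SR genes, -0.12 for the hnRNP genes and -0.10 for the Rbm genes. On the TMM scale 25 members were above 0 and 72 below, whereas 54 were above 0 with the implied totals and 51 with upper-quartile factors. The members' median relative to that of all genes was -0.08 under each of these scalings. By TMM-scaled CPM, K3R3 was below both WT libraries in 53.6% of the members and above both in 14.4%, against 34.2% and 33.9% of all tested genes; with the implied totals it was below both in 17.5% and above both in 39.2%, against 19.2% and 48.7% of all tested genes.

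**Figure D4:**
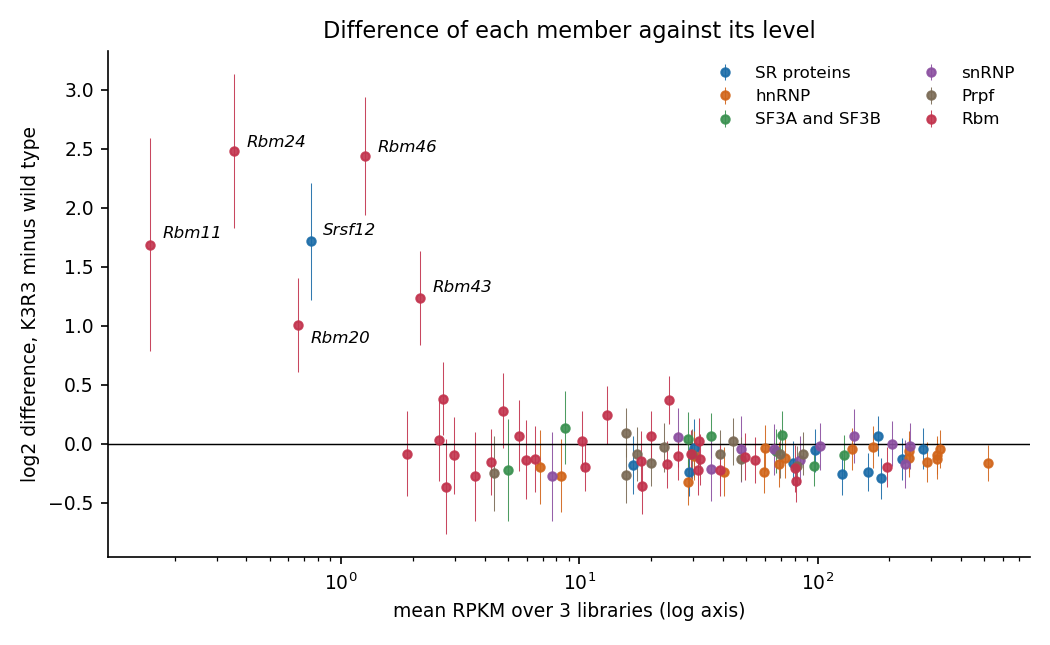
Fitted log2 difference of K3R3 minus WT for each of the 97 members (vertical axis, bars show 1 standard error) against its mean RPKM over the 3 libraries (log axis), coloured by family. The 6 named genes have the largest positive differences, 1.01 to 2.48, and lie at the low end of the level axis, while the other members lie near 0. Rbm44, at a mean of 1.88 RPKM and so below Rbm43 at 2.14, has a difference of -0.08.

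The differences went with abundance, a split chosen after the values were seen. Of the 61 members with a mean of 100 CPM or more, 0 were called by edgeR or DESeq2 and 60.7% were below both WT libraries, against 61.3% of the 2544 genes at that level. Their median log2 difference was -0.11, against -0.13 for all genes at that level. Of all genes at that level edgeR called 3 higher (0.118%) and 33 lower, and 2 were at least 1.5-fold above both WT libraries (0.0786%) and 30 as far below both. The 10 members between 0.5 and 10 CPM included the 3 called ones and all 5 that were at least 1.5-fold above both WT libraries, against 3.98% and 15.8% of genes at that level. Of these 10 members, 6 had a fitted difference above 0 and 4 below, against 3662 and 1646 of the 5308 genes at that level. Rbm11 is 1 of the 6, entered the test only through its K3R3 level and so had to be above 0. It adds nothing to that count, and the counts over all genes can hold such genes too. In that range 30.0% of the members were below both WT libraries at any distance, against 17.3% of genes. Of the 26 members in between, 46.2% were below both WT libraries, against 37.6% of genes at that level. Neither edgeR nor DESeq2 called any of the 26 and 0 were at least 1.5-fold above both WT libraries, against 1.1% of genes called higher by edgeR and 2.61% of genes above.

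The 6 genes described first had the largest positive differences of the members and were set apart with those values known. The other 91 members had log2 differences from -0.36 to 0.38, and 67 of them were within 0.2 of 0. The upper bound follows from that choice, and other members of low level are among the 91. Their standard errors ran from 0.15 to 0.43. The lowest adjusted p among them was 0.534 in the edgeR quasi-likelihood fit (Benjamini-Hochberg). The WT libraries of 8 members were at least 1.5-fold apart (8.25%), against 18.2% of all tested genes. After Rbm24 and Rbm46, the widest WT gaps were in Rbm42, Rbm11 and Rbm12. Rbm12 had 4074 counts in K3R3, against 1914 and 3747 in WT, so K3R3 was close to WT 2.

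Several members share sequence with other genes, and whether the authors counted by strand or kept reads with several matches is not given in the sources used here. In the GENCODE M21 annotation of GRCm38, 92.3% of the 50-base stretches of Rbm42 also occur in another annotated gene, as do 89.5% for Snrpf, 67.3% for Hnrnpf, 66.5% for Rbm4 and 65.4% for Srsf4. Both strands were searched, and genes that overlap the member in place were counted. Exons of other genes overlap 75.4% of the exon bases of Rbm42 and 60.5% of Rbm4 on the same strand. On the opposite strand they overlap 85.4% of Snrpf, 43.0% of Srsf4 and 26.5% of Hnrnpf. Hnrnpa1 shares 46.4% of its stretches with 20 other genes, 19 of them pseudogenes, and was listed at 7.80 RPKM in K3R3, against 8.49 and 8.75 RPKM in WT, under Hnrnpa0, Hnrnpa2b1, Hnrnpa3 and Hnrnpab. The Snrpf level of 7.14 RPKM in K3R3, against 7.80 and 8.06 RPKM in WT, was likewise far under its Sm ring partners. The levels of these genes, of Hnrnpa3 and of Rbm12, which overlaps Cpne1 on the same strand, are uncertain. For Rbm20, Rbm24, Rbm43, Rbm46 and Srsf12 the share was 0%, and for Rbm11 1.70%.

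Of 185 other splicing genes listed by role, from U1, U2 and U5 proteins through helicases and SR kinases to tissue-restricted regulators and nonsense-mediated decay factors, 174 were in the table and 172 were tested. With edgeR's quasi-likelihood test 0 were called in either direction, where 2.02% of all tested genes were called higher and 0.542% lower. At an unadjusted p under 0.05 there was 1 higher and 6 lower, where 7.9% and 3.33% of all tested genes were. DESeq2 called 0, where it called 0.239% of all tested genes higher and 0.188% lower. The lowest adjusted p was that of Dhx16, a spliceosomal helicase, which had 75.2 CPM in K3R3, against 157 and 87.7 CPM in WT. K3R3 was below both, and WT 1 was far above WT 2. Its log2 difference was -0.70 (SE 0.22), with an adjusted p of 0.0570 in the edgeR quasi-likelihood fit (Benjamini-Hochberg), and it was the lowest of the list. The highest was Celf6, a regulator known from the nervous system, with 1.46 CPM in K3R3, against 0.143 and 0.886 CPM in WT and a log2 difference of 1.46 (SE 0.82). The median of the list was -0.07.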

How the data were processed

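Poly(A)-selected, strand-specific RNA-seq libraries of 1 K3R3 and 2 WT samples were analysed. The authors deposited raw gene counts. The submitters' processing notes name HTSeq 0.5.4p1 and mm9, and neither aligner nor annotation is given in the sources used here. The deposited RPKM values equal counts divided by gene length and by totals larger than the listed counts, which make up 66.2% to 67.1% of those totals. The deposited fold change is a ratio of WT over K3R3, deposited also as log2, with unadjusted p-values; the submitters' processing notes name DESeq 1.10.1.

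Counts were tested with edgeR 4.0.16 in R 4.3.3 by the quasi-likelihood test (two-sided). TMM factors were computed on all rows, genes averaging 0.5 CPM or more were kept, and Benjamini-Hochberg adjustment ran over all 13829 tested genes. All 97 members passed. There was 1 residual degree of freedom, from the WT pair, and edgeR estimated an infinite prior df, so each p-value rests on the spread shared across genes and not on the gene's own WT gap. Each standard error was derived from the test, as the size of the fitted log2 difference divided by the square root of the quasi-likelihood F statistic. Log2 differences against single WT libraries used a prior count of 1. Alternatives were DESeq2 1.42.0, other scalings, other count filters, a likelihood ratio test, RPKM with pseudocounts of 1 and 0.1, and each WT library left out. Sequences and promoters are RefSeq's for GRCm38.p6, used for names and letters and not with coordinates of the deposited build.

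Genes were named where called, where at least 1.5-fold outside both WT libraries, as the 3 highest by RPKM and the extremes of each family, as the 3 lowest, and as the 5 with the widest WT gap. A gene that this rule names is not reported here. The members and lists were chosen with earlier results of these data known.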

Additional observations from a re-analysis of the deposited data

How the results depend on the processing

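No paired analysis was possible because the K3R3 label carries no replicate number. The count of 3 called members became 0 with DESeq2 and stayed within 2 to 4 under the other scalings, filters and the likelihood ratio test; for each called gene DESeq2 kept the direction (log2 2.51 for Rbm24, 2.46 for Rbm46 and 1.72 for Srsf12). At a minimum mean of 2 CPM, Rbm24 was no longer tested. Of the members at least 1.5-fold outside both WT libraries, 5 became 3 with RPKM plus 1, for which no all-gene share is given. On the TMM scale 66 members were outside both at any distance. These were 14.4% of the members above and 53.6% below, against 33.9% and 34.2% of all tested genes. Family medians turned with the scale. With the implied totals they were 0.0283 for all members, -0.0212 for SR, 0.0004 for hnRNP, 0.11 for SF3, 0.0833 for Snrp, 0.0388 for Prpf and 0.0228 for Rbm genes. With log2 RPKM plus 1 they were 0.0268, -0.0193, 0.0007, 0.11, 0.0918, 0.0393 and 0.0249 in that order, and with RPKM plus 0.1 they were 0.0305, -0.0195, 0.0007, 0.12, 0.0937, 0.0397 and 0.0259. Neither the implied totals nor RPKM carries TMM factors, and the cause was not tested beyond the choice of scaling. Leaving out each WT library gave medians of -0.13 to -0.05 for all members, -0.20 to -0.07 for SR, -0.12 to -0.11 for hnRNP, -0.13 to 0.09 for SF3, -0.20 to 0.0415 for Snrp, -0.17 to -0.04 for Prpf and -0.11 to -0.03 for Rbm genes, the higher value without WT 1 in each. With a WT library left out no residual degree of freedom remains, so calls were not tested there. The 6 genes with the largest positive differences rest on 5 to 274 counts per library, which limits their precision.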

Other observations

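Beside Dhx16, 5 other listed genes were lower in K3R3 at an unadjusted p under 0.05 in edgeR's quasi-likelihood test without passing the adjustment; 3.33% of all tested genes were lower at that threshold. Elavl2, an Hu-family RNA-binding protein of neurons and germ cells, was at 67.1 CPM in K3R3, against 86.1 and 115 CPM in WT, a log2 difference of -0.58 (SE 0.23). Rbfox2, a regulator of alternative exons, was at 148 CPM in K3R3, against 229 and 203 CPM in WT, a log2 difference of -0.54 (SE 0.20). Tia1, which promotes U1 binding at weak 5′ splice sites, was at 90.0 CPM in K3R3, against 133 and 128 CPM in WT, a log2 difference of -0.54 (SE 0.22). Msi2 was at 162 CPM in K3R3, against 228.5 and 203 CPM in WT (log2 -0.41, SE 0.20), and Tardbp at 873 CPM in K3R3, against 1287 and 911 CPM in WT (log2 -0.33, SE 0.17). For these 5 genes K3R3 was below both WT libraries. Celf2 was the 1 listed gene higher at that unadjusted threshold, at 23.6 CPM in K3R3, against 13.9 and 14.4 CPM in WT, with an adjusted p of 0.284 in the edgeR quasi-likelihood fit (Benjamini-Hochberg).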
